A study of Mus musculus with 32 samples.

Results

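The comparison described here set whole brains of BALB/c mice taken 28 days after implantation of BAL17 cells against whole brains of BALB/c mice labelled PBS and taken on the same day. BAL17 is a cultured B cell lymphoma line of the BALB/c strain, and the study implanted 500000 of its cells into the brain to model a lymphoma that starts in the central nervous system. Each group had 5 arrays, so 10 of the 32 samples of the series belonged to the comparison, and these were the only tumour and control brains of matched day. The other samples were cultures of BAL17 and of its variant BAL17VII and brains taken 21 days after implantation of either line. All 21789 probe sets that name a single gene were used, which represent 19938 genes. The model rests on 1 cell line, and an array of a whole brain mixes RNA of the lymphoma with RNA of every resident and infiltrating cell. The labels name whole brain as the material and frozen tissue sections with Trizol as the extraction. They do not say which parts of a brain the sections covered, nor that each array came from a separate mouse, so p-values measure the spread between these samples.

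Primary lymphoma of the central nervous system is nearly always a B cell tumour that grows within the brain and spreads along its vessels. B cells carry an immunoglobulin receptor with the signalling chains CD79A and CD79B, the surface protein CD20 (gene Ms4a1) and, for presentation of peptides to helper T cells, MHC class II molecules whose genes are switched on by interferon gamma in many other cells. Brain tissue answers many injuries with activation of microglia and astrocytes and with entry of blood monocytes and T cells.

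The deposited values were array intensities, and differences are given below on their log2 scale, where 1 unit is a doubling, as BAL17 minus PBS ± the standard error (SE) of limma's moderated test with 5 arrays in each group. A gene was called when its Benjamini-Hochberg adjusted p over all 19938 genes fell below 0.05, and "rose" and "fell" are kept for called genes. Brains are numbered as in the labels, and a number was not taken to link a BAL17 brain to a PBS brain. The median intensity of an array, between 6.70 and 6.76 over the 10 brains, serves as a mark of what is low. Arrays of the BAL17 group correlated with each other at 0.989 to 0.994, those of the PBS group at 0.9839 to 0.9934 and arrays of different groups at 0.9696 to 0.9848, and no 2 arrays were identical. As a check of the whole brain label, the neuronal genes Snap25 and Rbfox3 stood at 13.04 and 10.32 in the PBS brains, far above the array median. PBS brains had B cell genes near the bottom of the scale, with Ms4a1 at 4.95 ± 0.14 (SD, n = 5). The number of arrays limits the precision, and the median SE of a difference was 0.09.

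In the brains with BAL17, genes of dividing cells and of B cells rose most, and genes of myelin, striatum and thalamus fell by smaller amounts. Of the 19938 genes 4218 were called, 21.2% of those tested, with 1448 higher (7.26%) and 2770 lower (13.9%). In a mixed tissue, fewer cells of a type, less RNA per cell and dilution by lymphoma RNA cannot be told apart. This holds for every fall below. Rises were fewer and larger than falls. The median difference was 0.47 among genes called higher and -0.37 among genes called lower, 231 genes at least doubled and 17 at least halved, which are 1.16% and 0.0853% of the genes tested. In 3058 genes (15.3%) the values of the 5 BAL17 brains and the 5 PBS brains did not overlap, with 1127 higher (5.65%) and 1931 lower (9.69%) in the BAL17 brains. When the test asked for a change of more than 1.5 times, 220 genes passed, all of them higher, and at an unadjusted p under 0.05 limma gave 331 higher and 44 lower.

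**Figure D1:**
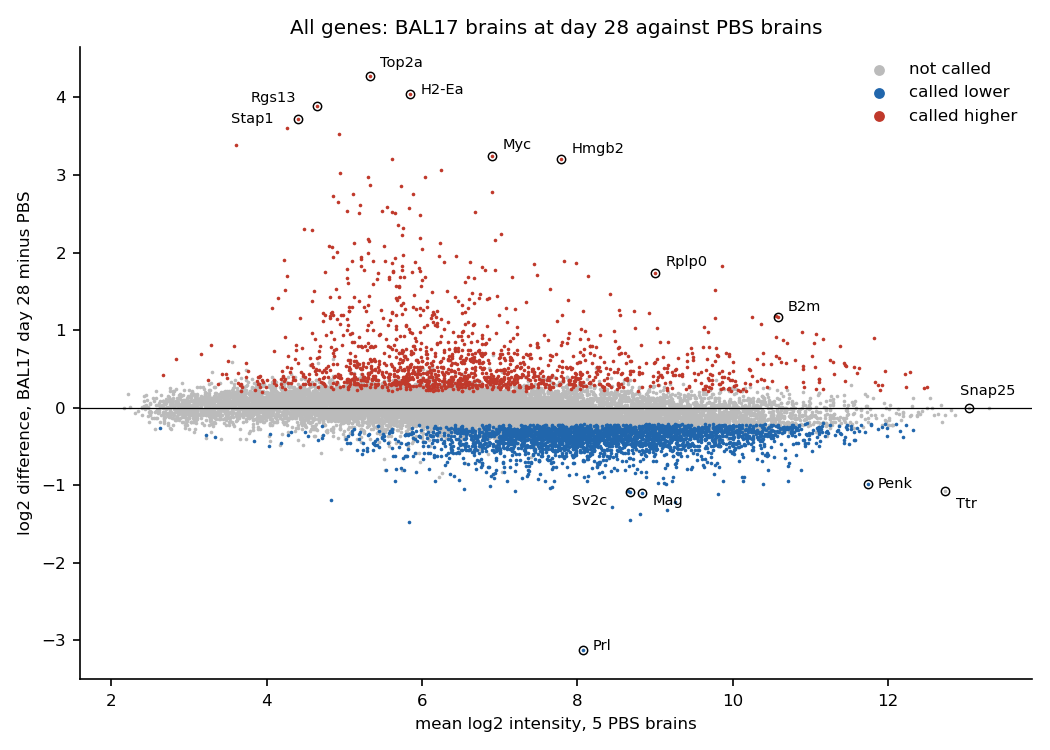
Difference between 5 BAL17 brains at day 28 and 5 PBS brains (log2, vertical axis) against the mean log2 intensity of the PBS brains (horizontal axis), 1 point a gene, with called genes in colour. The largest rises, such as Top2a by 4.28 and Rgs13 by 3.89, lie at low PBS levels, and apart from Prl at -3.13 the falls reach no lower than the -1.48 of Slitrk6.

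The 15 largest rises with no overlap ran from 4.28 to 2.87. They were the division genes Top2a, Bub1, Knl1, Mki67, Bub1b and Ncapg, the B cell genes Rgs13, Stap1, Ms4a1 and Cd79b, the class II gene H2-Ea, and Myc, P2ry10, Hmgb2 and Cdk6. Cdk6, a kinase that starts the cell cycle, rose by 3.06 ± 0.18, and Hmgb2, a chromatin protein abundant in dividing cells, rose by 3.20 ± 0.11. The 15 largest falls with no overlap were Prl, Nexn, Mag, Sv2c, Ntng1, Rarb, Rnd2, Car2, Vat1l, S100b, Ugt8a, Dubr, Otx2, Lcat and Klhl4. After prolactin (Prl), the steepest of them were Nexn, an actin-binding protein, by -1.22 ± 0.18 and Mag, a glycoprotein of myelin, by -1.10 ± 0.13.

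**Figure D2:**
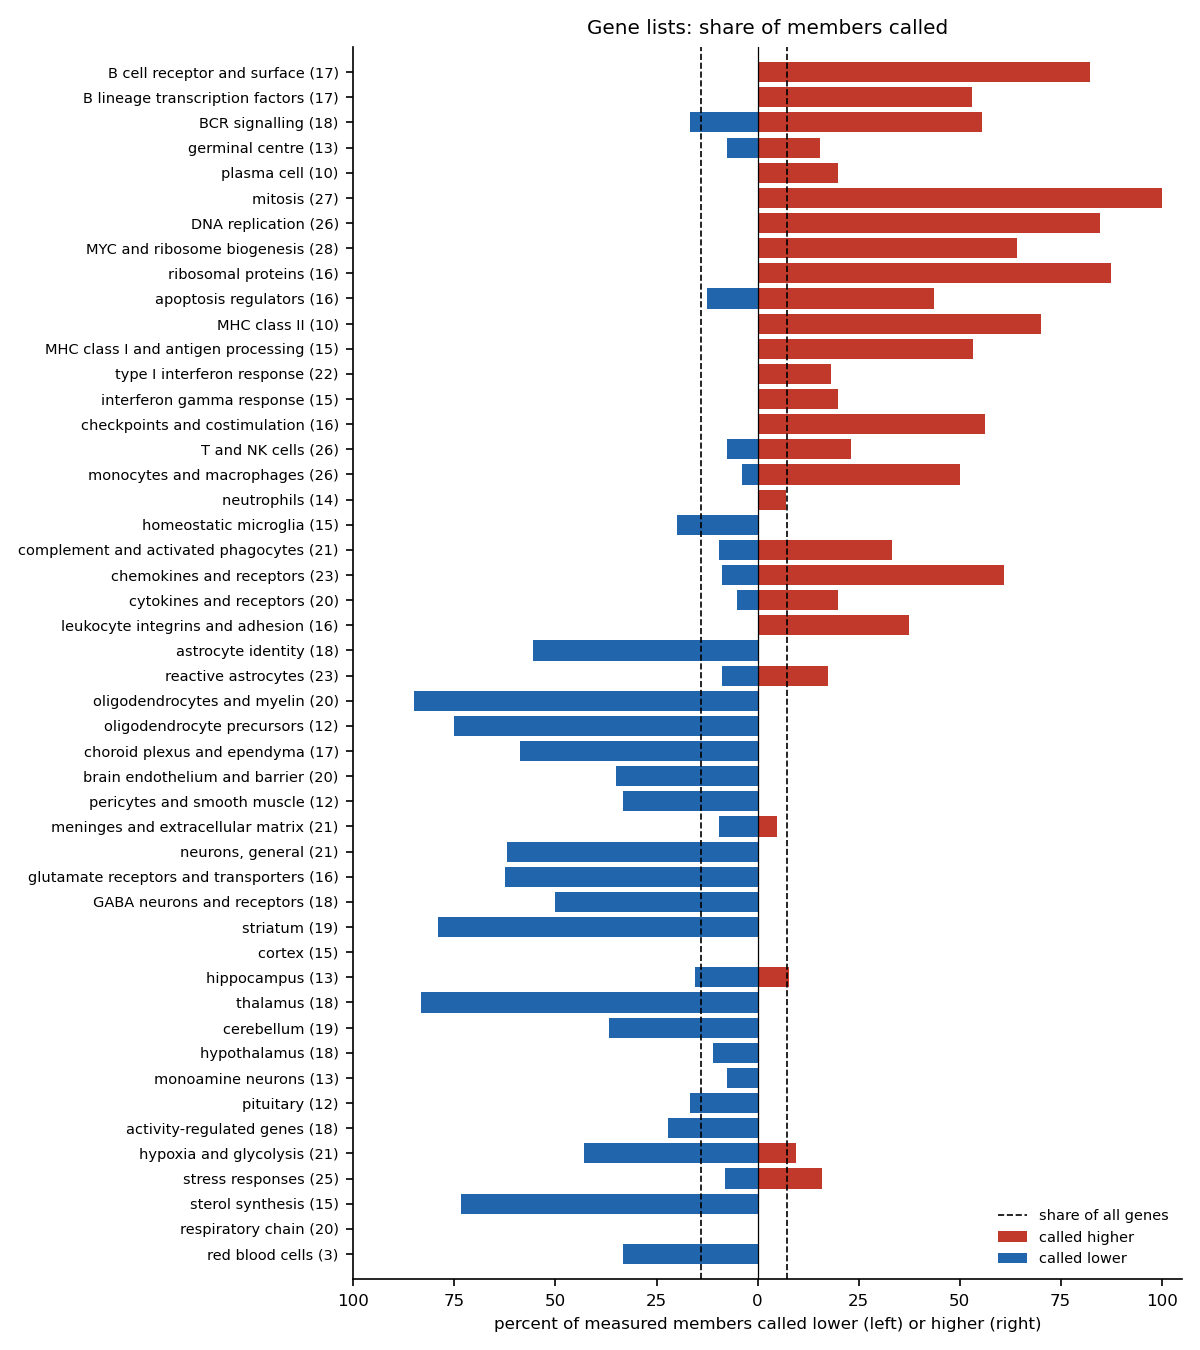
Percent of the measured members of 48 gene lists called higher (right) or lower (left), with the number measured in brackets. Dashed lines mark the shares of all genes, 7.26% higher and 13.9% lower. Mitosis reaches 27 of 27 members higher, while the cortex list and the respiratory chain list have no called member.

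Groups of genes with a known role are described by how many of their measured members were called in each direction. Their median difference is given beside -0.02 over all genes. Brighter genes lay lower. Among the 9999 genes above the array median in at least 5 brains, the median difference was -0.12. Tested on their own, 3052 of these 9999 were called lower, a larger share than the 13.9% of all genes. The 9999 include all 21 general neuronal, 18 astrocyte identity and 20 respiratory chain members. They also include 19 of 20 myelin, 10 of 12 precursor, 17 of 18 GABA, 15 of 16 glutamate and 14 of 20 endothelium members. Of the striatum list they hold 15 of 19, of thalamus 14 of 18 and of cerebellum 16 of 19. Of hypoxia and glycolysis they hold 18 of 21 and of the sterol pathway 13 of 15. For these lists they are the closer comparison. Of the 48 lists, 37 list directions had no call by limma, and in 26 of these no member reached an unadjusted p under 0.05 either. The most such members in 1 of these directions was 7, in the lower direction of the respiratory chain.

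Genes of the B cell receptor and B cell surface rose in 14 of 17 measured members and fell in none, with a median difference of 1.17 against -0.02 over all genes. Cd79b, a signalling chain of the B cell receptor, stood at 9.29, 8.98, 9.03, 8.85 and 8.94 in BAL17 brains 1 to 5 and at 6.21, 5.59, 6.0, 6.38 and 6.03 in the PBS brains. It rose by 2.98 ± 0.13 (adjusted p = 3.65e-10), and its level varied little among the tumour brains. Ms4a1, which encodes CD20, stood at 8.74, 7.48, 8.08, 7.67 and 7.89 against 4.83, 4.91, 4.86, 4.96 and 5.19. Its rise of 3.02 ± 0.18 (adjusted p = 1.16e-08) was close to that of Cd79b, but the tumour brains spread over more than a log2 unit, with brain 1 highest and brain 2 lowest. Cd72 and Cd37, both membrane proteins of B cells, each rose by 1.88, with SEs of 0.10 and 0.11. The other chain of the receptor, Cd79a, rose by 1.75 ± 0.27, and PBS brain 1 was its lowest value at 4.43 while PBS brain 2 reached 6.57.

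Transcription factors of the B lineage rose in 9 of 17 members and fell in none (median 0.29). Ikzf3 rose by 2.51 ± 0.11, Pou2af1, a coactivator of immunoglobulin genes, by 2.12 ± 0.15, Ikzf1 by 1.83 ± 0.11 and Pax5, which fixes B cell identity, by 1.62 ± 0.12. Bcl6, the repressor that runs the germinal centre programme, was not called (-0.34 ± 0.13, adjusted p = 0.077). Of 18 genes of signalling below the receptor 10 rose and 3 fell (median 0.40). The kinase Btk rose by 2.73 ± 0.12 and stood at 7.64, 7.44, 7.77, 7.46 and 7.61 against 4.78, 5.13, 4.40, 4.92 and 5.04. Vav1, an exchange factor, rose by 1.0 ± 0.09, the phosphatase Inpp5d by 0.83 ± 0.08 and Malt1, which links the receptor to NF-kB, by 0.74 ± 0.08. The 3 falls were Grb2, Cd81 and Prkcb, adaptor, membrane protein and kinase that other cells use too, and only 1 of 18 members was called lower without BAL17 brain 3, 4 or 5 or without PBS brain 5.

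The germinal centre list as a whole stayed near the background, with 2 of 13 members higher, 1 lower and a median of 0.07, yet its 2 rises were among the largest of the comparison. Rgs13, a regulator of G protein signalling found in germinal centre B cells, stood at 8.84, 8.43, 8.60, 8.46 and 8.36 in the BAL17 brains and at 4.57, 5.32, 4.54, 4.65 and 4.16 in the PBS brains. Its difference was 3.89 ± 0.16, a fold of 14.8. Stap1, an adaptor of B cells, rose by 3.72 ± 0.17. Lmo2 was the member called lower (-0.42 ± 0.13), and it was not called without BAL17 brain 3, 4 or 5 or PBS brain 1, 2 or 5, with differences of -0.42 to -0.32. Ung, which acts on deaminated DNA, was not called (0.24, adjusted p = 0.0553). In the plasma cell list 2 of 10 members rose, Mzb1 by 1.06 ± 0.09 and Derl3 by 0.37 ± 0.10, both proteins of the endoplasmic reticulum, while Prdm1, which drives plasma cell differentiation, was not called (0.19 ± 0.08, adjusted p = 0.121), nor was Creld2 (0.27, adjusted p = 0.0934).

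Mitosis was the most uniform of the lists. All 27 measured members rose, none of their values overlapped between the groups, and the median difference was 1.80. In the PBS brains 24 of the 27 stayed below the array median in every brain. Top2a, which untangles chromosomes before division, stood at 9.90, 9.48, 9.63, 9.61 and 9.47 in the BAL17 brains and at 4.85, 5.74, 5.31, 5.30 and 5.47 in the PBS brains. That is a difference of 4.28 ± 0.14 (adjusted p = 1.38e-11), or 19.5-fold. Mki67, the proliferation antigen, stood at 8.81, 8.54, 8.85, 9.0 and 8.89 against 5.64, 5.83, 5.64, 5.52 and 5.43. The spindle checkpoint kinases Bub1 and Bub1b rose by 3.61 ± 0.12 and 2.98 ± 0.10, and Ncapg, a condensin subunit, by 2.87 ± 0.09. Among DNA replication genes 22 of 26 rose and none fell (median 0.63). The helicase subunits Mcm6, Mcm3 and Mcm4 rose by 2.58 ± 0.08, 1.68 ± 0.13 and 0.96 ± 0.07, and Rrm2, which makes deoxynucleotides, by 1.89 ± 0.12.

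Since the mitosis genes rose together, their promoters were read for CCAAT, the site of the factor NF-Y, in the 250 bases before each start site of the RefSeq promoter table (build GRCm38.p6). The motif was searched on both strands, where it reads ATTGG on the other. It lay in 21 of 25 windows of the mitosis genes (84%) and in 11120 of all 32851 windows (33.8%). Of the 27 genes 23 had a window, and 19 of these held the motif. Top2a had the most matches, 6 in its window at chr11:99024190-99024439 on the minus strand, and its sequence is shown with every CCAAT or ATTGG in capitals.
Top2a: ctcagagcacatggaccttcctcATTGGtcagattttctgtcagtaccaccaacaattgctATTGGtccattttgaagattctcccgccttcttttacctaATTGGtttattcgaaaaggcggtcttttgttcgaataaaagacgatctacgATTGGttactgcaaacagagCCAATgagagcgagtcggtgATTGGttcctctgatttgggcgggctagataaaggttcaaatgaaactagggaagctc
A match describes these letters and was not tested as a binding site.

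MYC and genes of ribosome biogenesis rose in 18 of 28 members and fell in none (median 0.48). Myc, the transcription factor that drives growth, stood at 9.86, 10.15, 10.16, 10.35 and 10.20 in the BAL17 brains and at 6.85, 7.30, 6.62, 6.71 and 7.0 in the PBS brains. It rose by 3.25 ± 0.12 (adjusted p = 1.02e-10), a fold of 9.50, and BAL17 brain 1, the highest in Ms4a1, was the lowest in Myc. Nop58 and Wdr43, proteins that assemble ribosomes in the nucleolus, rose by 1.26 ± 0.10 and 1.22 ± 0.08, and Npm1 by 0.87 ± 0.08. Ribosomal proteins rose in 14 of 16 members (median 0.64), among them Rplp0 by 1.74 ± 0.09, Rps18 by 1.08 ± 0.08, Rps4x by 0.90 ± 0.09 and Rpl10a by 0.79 ± 0.08. The actin gene Actb, a gene of every cell, was not called (0.06, adjusted p = 0.551). These start from high levels, since none of the 16 lay below the array median in the PBS brains.

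The E-box CACGTG, which MYC can bind and which reads the same on both strands, lay in 7 of 27 windows of the MYC list (25.9%) and in 1978 of all 32851 windows (6.02%). Of the 28 genes 22 had a window, and 6 of these held it. Cdk4, a kinase of the cell cycle that rose by 0.46 ± 0.08, had the most matches, 4 in its window at chr10:127063285-127063534 on the plus strand. It is shown with each E-box in capitals, and it was picked for its matches rather than for its difference.
Cdk4: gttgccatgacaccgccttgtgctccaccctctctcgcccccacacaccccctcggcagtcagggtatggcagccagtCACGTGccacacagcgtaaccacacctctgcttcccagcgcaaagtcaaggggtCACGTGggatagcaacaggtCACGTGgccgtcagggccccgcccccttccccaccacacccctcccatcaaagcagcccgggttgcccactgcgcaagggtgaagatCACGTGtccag
The promoter windows show letters only, and no binding was measured.

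Among regulators of cell death 7 of 16 rose and 2 fell. Casp4, an inflammatory caspase, rose by 2.51 ± 0.11, Bcl2, which protects B cells from apoptosis, by 1.89 ± 0.09, Casp8, the initiator downstream of death receptors, by 1.42 ± 0.12 and Birc3 by 1.02 ± 0.12. Bcl2 stood at 9.72, 9.60, 9.73, 9.77 and 9.81 against 7.91, 7.95, 7.84, 7.54 and 7.93. The 2 members called lower were Bcl2l1 and Xiap, both protective, at -0.46 and -0.36, and only 1 of them was called without BAL17 brain 3, 4 or 5 or without PBS brain 2.

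The cultured BAL17 cells give a level for each gene in the line itself. No file says whether lines and brains were normalized together, so the 6 cultures were read only against the median of their own arrays, 6.54 to 6.65, and not tested. Of the 231 genes that at least doubled, 214 (92.6%) lay above the median in all 6 cultures, against 43.8% of all genes and 38.4% of the genes called lower. The other extreme, below the median in all 6, held 13 of them, 5.63% against 44.8% of all genes.

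**Figure D3:**
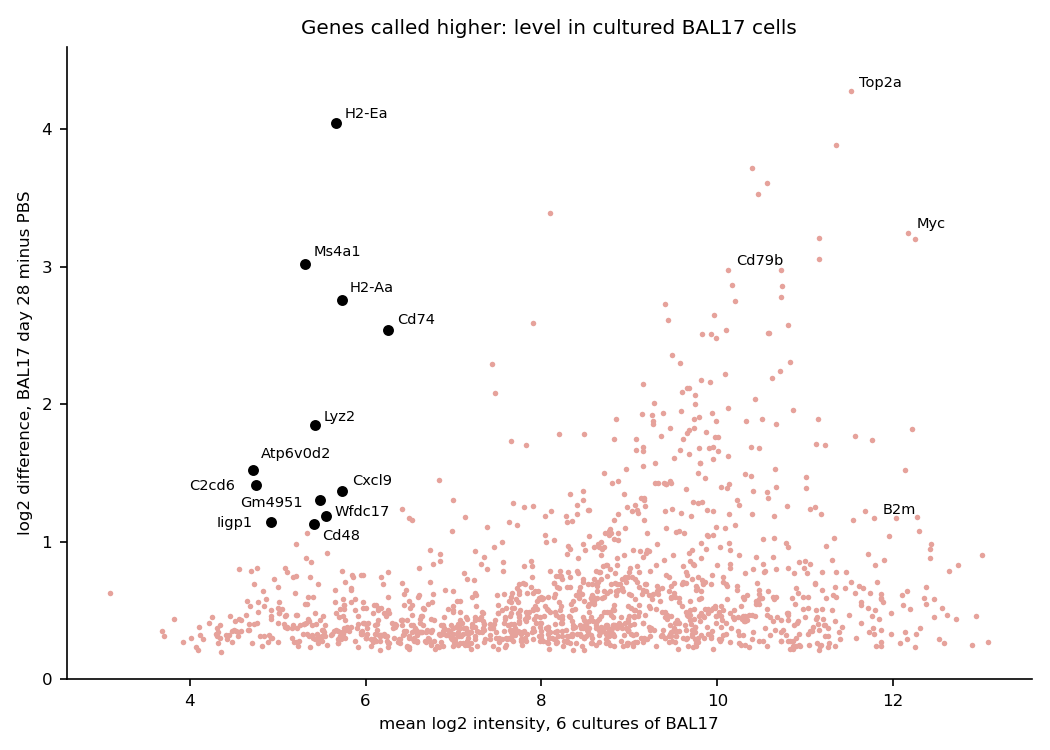
Difference between BAL17 and PBS brains (log2, vertical axis) against the mean log2 intensity of 6 cultures of BAL17 (horizontal axis) for the 1448 genes called higher. Black points are the 12 genes with the largest difference among those below the array median in every culture, from H2-Ea at 4.05 to Cd48 at 1.13. Their place on the left follows from that choice. Top2a and Myc lie on the right.

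The 12 largest rises of this kind were H2-Ea, Ms4a1, H2-Aa, Cd74, Lyz2, Atp6v0d2, C2cd6, Cxcl9, Gm4951, Iigp1, Wfdc17 and Cd48. They hold 3 genes of MHC class II, the CD20 gene of B cells, the lysozyme gene of macrophages and genes induced by interferon gamma. H2-Ea, a chain of the class II molecule I-E, stood at 10.72, 9.70, 10.27, 9.38 and 9.42 in the BAL17 brains, at 6.01, 6.27, 5.94, 5.57 and 5.45 in the PBS brains and between 5.50 and 5.82 in the cultures. Every BAL17 brain was thus above its array median in H2-Ea, and every PBS brain and culture below it. Ms4a1 lay between 4.81 and 5.65 in the cultures, beside Cd79b at 10.08 to 10.18 and Pax5 at 10.02 to 10.26.

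MHC class II genes rose in 7 of 10 members and fell in none (median 0.81). H2-Ea rose by 4.05 ± 0.23 (adjusted p = 7.32e-09), H2-Aa by 2.76 ± 0.24, Cd74, the invariant chain that escorts class II molecules, by 2.54 ± 0.16 and H2-Eb1 by 0.86 ± 0.10. The mean of the list's members was 8.15, 7.71, 7.94, 7.49 and 7.61 in BAL17 brains 1 to 5 and between 6.49 and 6.60 in the PBS brains, so the tumour brains differed among themselves by more than the PBS brains did. B cells and macrophages both carry these genes, and their parts in the rise were not tested. Class I genes and their processing rose in 8 of 15 members (median 0.38). B2m, the light chain of class I, rose by 1.17 ± 0.12 from an already high 10.58, the immunoproteasome subunit Psmb8 by 1.27 ± 0.14, the peptide-trimming enzyme Erap1 by 1.23 ± 0.09 and the transporter Tap1 by 0.62 ± 0.09.

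The medians of the interferon lists were below that of the class II list, and the difference between the lists was not tested. Of 22 type I interferon genes 4 rose and none fell (median 0.16), with 3 to 5 higher when 1 brain was left out. The 4 were Trim30a (0.62 ± 0.16), Ddx58 (0.58 ± 0.09), Parp14 (0.53 ± 0.15) and Bst2 (0.51 ± 0.08). Values of Trim30a and Parp14 overlapped between the groups. Parp14 was not called without BAL17 brain 1 or 3 or PBS brain 2, 3 or 5 (0.4 to 0.51). Of 15 interferon gamma genes 3 rose (median 0.27), with 2 to 5 when 1 brain was left out: 2 without BAL17 brain 3 or PBS brain 5, and 5 without BAL17 brain 4 or 5 or PBS brain 4. The replicate block gave 6. Cxcl9, a chemokine for T cells that interferon gamma induces, stood at 7.78, 6.08, 7.19, 5.86 and 5.85 in the BAL17 brains against 5.66, 4.70, 5.11, 5.29 and 5.17. It rose by 1.37 ± 0.32 (adjusted p = 0.00715), and brains 1 and 3 carried most of the difference, which was 1.06 without brain 1. Iigp1, an interferon-induced GTPase, stood at 7.69, 5.97, 6.57, 5.13 and 5.54 against 5.15, 4.93, 5.04, 5.24 and 4.83. Its rise of 1.14 ± 0.34 (adjusted p = 0.0257) was no longer called without BAL17 brain 3 (1.04, adjusted p = 0.0661) or PBS brain 5 (1.09, adjusted p = 0.055), and was 0.76 without BAL17 brain 1. The other member called higher was Cd274 (1.30 ± 0.15), which is counted in the list of T cell ligands below too and was high in the cultures. Irgm1 (0.53, adjusted p = 0.0513) and the chemokine Cxcl10 (0.52, adjusted p = 0.0548) were not called, nor was Ifng itself (0.15 ± 0.10, adjusted p = 0.302). The core of the interferon-stimulated response element, a pair of GAAA boxes 2 bases apart, lay in 8 of 19 windows of the type I list (42.1%), 6 of 13 of the interferon gamma list (46.2%) and 2.98% of all windows, on either strand.

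Ligands and receptors that restrain or aid T cells rose in 9 of 16 members (median 0.30). The PD-1 ligands led, Pdcd1lg2 by 1.89 ± 0.13 and Cd274 by 1.30 ± 0.15, and both were high in the cultures, with means of 10.51 and 10.22. Cd86, a costimulator, rose by 0.54 ± 0.12 and Vtcn1 by 0.34 ± 0.08. Of the 16, 12 stayed below the array median in all PBS brains.

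Of 26 markers of T cells and NK cells 6 rose and 2 fell (median 0.17). In the PBS brains 23 of the 26 were below the array median in all 5. The largest rise was Cd2, an adhesion molecule, by 2.36 ± 0.16, but Cd2 stood at 9.48 in the cultured BAL17 cells. Cd3g, a chain of the T cell receptor complex, rose by 0.89 ± 0.20 with overlapping values, 6.01, 4.97, 6.12, 5.29 and 5.19 against 4.47, 4.24, 4.67, 5.02 and 4.71. The defining genes Cd3e (0.26, adjusted p = 0.119) and Cd8a (0.17, adjusted p = 0.336) were not called, nor were Gzma (0.10, adjusted p = 0.504) and Gzmb (0.18, adjusted p = 0.299). Ccl5, made by T cells and others, was above the array median in every brain, at 8.56, 7.63, 7.90, 7.45 and 7.51 against 7.07, 7.26, 6.76, 7.35 and 7.10, and rose by 0.70 ± 0.18. Gzmk rose by 0.29 ± 0.07. Nkg7 (0.36 ± 0.11, adjusted p = 0.0242) and Klrd1 (0.39 ± 0.12, adjusted p = 0.0266) were called higher too, with overlapping values. The falls were Eomes and Cd4. Eomes, a transcription factor of NK cells, of effector T cells and also of some neurons, fell by 0.88 (SE 0.23), with PBS brain 1 highest at 7.92. Cd4 was called lower by -0.46 ± 0.13, but not without BAL17 brain 4 or PBS brain 2, 3 or 5 (-0.42 to -0.39). The count of rises was 4 without BAL17 brain 1 or 3 or PBS brain 3.

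Markers of monocytes and macrophages rose in 13 of 26 members and fell in 1 (median 0.40). The other 12 were not called. Among them were Cd14 (0.04, adjusted p = 0.794), Ccr2 (0.40, adjusted p = 0.0504), Adgre1 (0.01, adjusted p = 0.974) and Itgam (-0.31, adjusted p = 0.156). Lyz2, lysozyme of myeloid cells, stood at 9.95, 9.52, 9.67, 8.35 and 8.98 in the BAL17 brains and at 6.88, 7.99, 7.59, 7.37 and 7.39 in the PBS brains, and between 4.88 and 5.83 in the cultures. Its rise of 1.85 ± 0.25 (adjusted p = 0.000144) was smallest in BAL17 brain 4. Msr1, a scavenger receptor of macrophages, rose by 0.81 ± 0.10 and was low in the cultures at 4.77. Ms4a7 rose by 0.49 ± 0.12. Plac8, Cybb and Ms4a6c rose by 2.29 ± 0.13, 1.73 ± 0.16 and 1.24 ± 0.13, but stood at 7.44, 7.65 and 6.41 in the cultures, so that the line has levels of its own for Plac8 and Cybb. Csf1r, the receptor of the main macrophage growth factor, was the member called lower, by -0.35 ± 0.12 (adjusted p = 0.0437), and it lost the call without BAL17 brain 2, 3, 4 or 5 or PBS brain 1, 2 or 3, with differences from -0.37 to -0.27.

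Markers of resident microglia gave few calls, beside 7.26% called higher and 13.9% called lower of all genes. Of 15 homeostatic microglia genes none was called higher and 3 were lower (median -0.17): the purine receptor P2ry13 by -0.48 ± 0.13, Gpr34 by -0.59 ± 0.18 and Csf1r. Only 1 was called lower without BAL17 brain 4 or 5 or without PBS brain 2, in which Gpr34 stood at 6.74 against 6.04 or less in the other PBS brains. P2ry12 (-0.24, adjusted p = 0.264), Tmem119 (-0.31, adjusted p = 0.0983) and Aif1 (-0.06, adjusted p = 0.76) were not called. Of 21 genes of complement and activated phagocytes 7 rose and 2 fell (median 0.24). Cd52 rose by 2.59 ± 0.21 and stood at 7.91 in the cultures, whereas Gpnmb, a glycoprotein of lipid-loaded phagocytes, rose by 0.58 ± 0.09, the lysosomal protease Ctsz by 0.50 ± 0.10 and Lgals3 by 0.41 ± 0.09. Of the complement genes, C3ar1 rose by 0.48 ± 0.12 and C4b, with overlapping values, by 0.36 ± 0.11. C1qa (-0.21, adjusted p = 0.172), C1qb (0.24, adjusted p = 0.123) and C1qc (0.40, adjusted p = 0.0687) were not called. The falls were Ctsd, a lysosomal protease, at -0.45 ± 0.12 and Lpl, a lipase, at -0.49 ± 0.14. Only 1 of the 21 was called lower without BAL17 brain 3 or 4 or PBS brain 2, and 4 were with the filter at the array median or with trended and robust moderation. Neutrophil markers stayed at the foot of the scale, with 14 of 14 below the array median in all PBS brains and 1 call, Mmp8 by 0.33 ± 0.10, which was lost when any 1 of BAL17 brains 1, 2, 3 and 5 or PBS brains 1, 2 and 5 was left out (0.27 to 0.33). S100a9 (0.16, adjusted p = 0.279), Stfa2 (0.18, adjusted p = 0.298) and Cxcr2 (0.15, adjusted p = 0.309) were not called.

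Chemokines and their receptors rose in 14 of 23 members and fell in 2 (median 0.37). The largest rises were receptors of lymphocytes. P2ry10, a receptor for lysophosphatidylserine on lymphocytes, rose by 3.39 ± 0.11 and Cxcr4, the receptor for CXCL12, by 2.16 ± 0.12, and both were above the array median in the cultures, at 8.10 and 9.92. Ccr7 and Ccr6 rose by 0.82 ± 0.14 and 0.54 ± 0.10, while Cxcr5, the receptor for CXCL13, was not called (0.13, adjusted p = 0.36). Among the ligands, Cxcl13, which attracts B cells, rose by 0.54 ± 0.11, with values of 6.62, 6.18, 6.67, 6.14 and 6.36 against 5.87, 5.80, 6.02, 5.94 and 5.62. The monocyte attractant Ccl2 rose by 0.37 ± 0.10 with overlap, PBS brain 4 being high at 6.08. The falls were the scavenging receptor Ackr3 at -0.52 ± 0.13 and the ligand Cx3cl1 at -0.25 ± 0.08, and Cx3cl1 was not called after quantile normalization or without any 1 of the 5 BAL17 brains or PBS brains 1, 2 and 5 (-0.27 to -0.23). Of 20 cytokines and receptors 4 rose and 1 fell (median 0.09), led by the receptor Il7r (1.19 ± 0.13) and lymphotoxin beta, Ltb (0.85 ± 0.11), followed by Tgfb1 (0.53 ± 0.11) and Il12b (0.35 ± 0.10), which was not called without BAL17 brain 3 (0.33). The fall was Il6st, the shared receptor chain of the interleukin 6 family, at -0.23 ± 0.07, and no member was called lower after quantile normalization, with the replicate block or without BAL17 brain 2, 3 or 5 or PBS brain 1, 2 or 4 (-0.24 to -0.20). Il10 was not called (-0.16, adjusted p = 0.376). In the list of leukocyte adhesion 6 of 16 rose, but 2 to 4 when any 1 brain was left out: 2 without BAL17 brain 3 or 5 or PBS brain 1, 3 without BAL17 brain 1 or 2 or PBS brain 3 or 4, and 4 without BAL17 brain 4 or PBS brain 2 or 5. Itga4, an integrin subunit by which lymphocytes bind vessels, rose by 0.90 ± 0.08 and Cd48 by 1.13 ± 0.13. Icam2 (0.36 ± 0.12) and Coro1a (0.28 ± 0.10) were called too, each in only 2 of the 10 fits that leave out 1 brain.

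**Figure D4:**
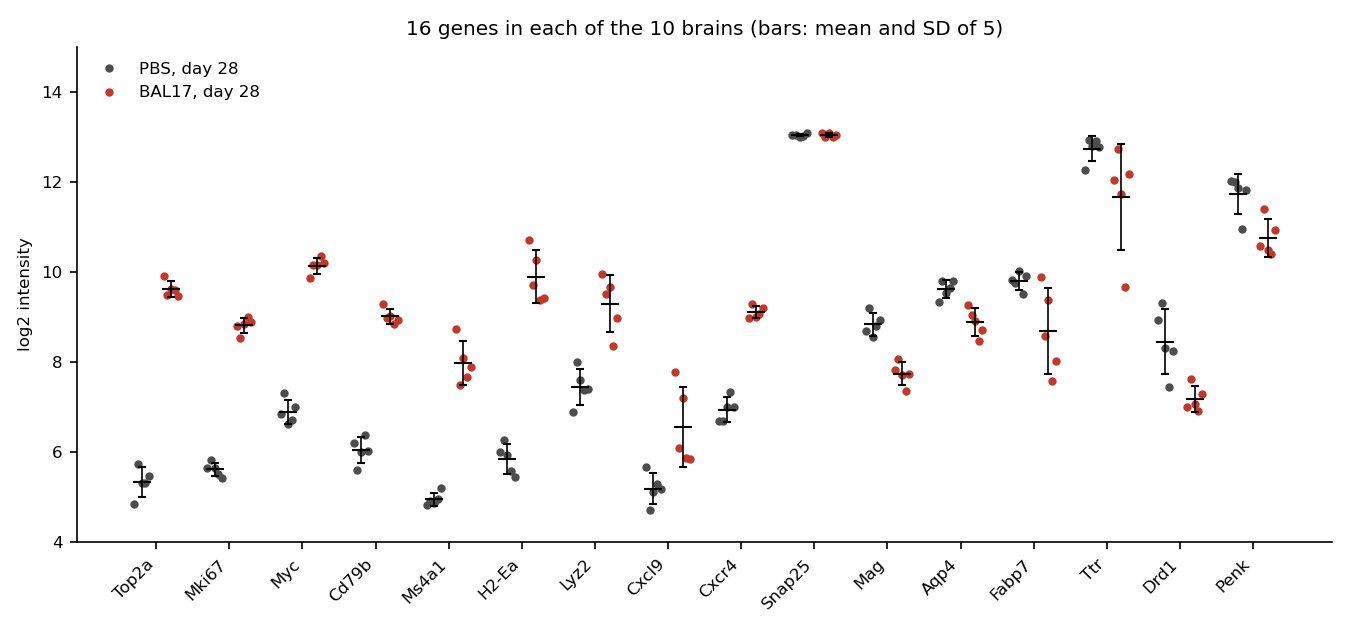
Log2 intensity (vertical axis) of 16 genes in each of the 5 PBS brains (grey) and 5 BAL17 brains (red), with the mean and SD of each group in black. Top2a, Mki67 and Cd79b form tight groups far apart, Ms4a1, H2-Ea and Cxcl9 spread widely among the BAL17 brains, and Snap25 is level at about 13.04 in both.

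Genes of brain cells fell, most evenly in the oligodendrocyte lineage. Of 20 genes of oligodendrocytes and myelin 17 fell and none rose, with a median of -0.45. Mag stood at 7.83, 8.07, 7.71, 7.35 and 7.73 in the BAL17 brains and at 8.69, 9.21, 8.55, 8.79 and 8.94 in the PBS brains. It fell by 1.10 on the log2 scale (SE 0.13, adjusted p = 4.25e-05), or 2.14-fold. Car2, a carbonic anhydrase of oligodendrocytes, fell by 0.99, Ugt8a, which makes the galactolipids of myelin, by 0.95, Trf by 0.90, Mog by 0.83 and Cnp by 0.71. Mbp, the abundant basic protein of compact myelin, fell by 0.37 (SE 0.09). Of 12 genes of oligodendrocyte precursors 9 fell and none rose (median -0.39), with Lhfpl3 at -0.70 ± 0.15, Vcan at -0.49 ± 0.09 Ptprz1 at -0.48 ± 0.07 and the transcription factor Olig1 at -0.41 ± 0.09.

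Astrocyte identity genes fell in 10 of 18 members and rose in none (median -0.30). S100b, a calcium-binding protein, stood at 8.57, 8.60, 8.23, 7.71 and 8.22 against 8.95, 9.59, 9.08, 9.14 and 9.32, a difference of -0.95 ± 0.16. Aqp4, the water channel of astrocyte endfeet, fell by 0.74 (SE 0.14), Acsbg1 by 0.44 (SE 0.08) and the bicarbonate transporter Slc4a4 by 0.37 (SE 0.07). Fabp7, a fatty acid binding protein of astrocytes and glial precursors, spread widely among the tumour brains. It stood at 9.89, 8.57, 9.38, 7.57 and 8.03 in them and at 9.83, 9.75, 10.03, 9.51 and 9.91 in the PBS brains. Brain 1 lay within the PBS range and brain 4 more than 2 log2 units below brain 1. The difference of -1.12 ± 0.32 (adjusted p = 0.0234) was not called without BAL17 brain 4 (-0.84, adjusted p = 0.052) or 5 (-0.96, adjusted p = 0.064).

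Most genes of reactive astrocytes, 17 of 23, were not called. Of the 23 members 4 rose and 2 fell (median 0.07), beside 7.26% called higher and 13.9% called lower of all genes. Gfap, the filament protein of reactive astrocytes, stood at 7.57, 7.93, 7.44, 7.59 and 7.72 in the BAL17 brains and at 7.44, 8.23, 8.0, 7.83 and 8.09 in the PBS brains, and was not called (-0.27 ± 0.13, adjusted p = 0.171). Serpina3n was not called either (-0.30 ± 0.16, adjusted p = 0.201). Among the rises, Srgn, the core protein of leukocyte granules, rose by 1.20 ± 0.15 and stood at 10.39 in the cultures, the small heat shock protein Hspb1 rose by 0.64 ± 0.13, Lcn2 by 0.56 ± 0.11 and Vim by 0.42 ± 0.09. The filament gene Nes and the matrix gene Tnc were called lower, at -0.45 ± 0.10 and -0.47 ± 0.13, and Tnc was not called without BAL17 brain 4 or 5 or PBS brain 1 (-0.44 to -0.38).

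Choroid plexus and ependyma genes fell in 10 of 17 members and rose in none (median -0.53). Clic6 fell by 1.01 (SE 0.22), the transcription factor Otx2 by 0.94 (SE 0.18), Kl by 0.77 (SE 0.17) and Cldn2 by 0.54 (SE 0.12). Ttr, the thyroxine carrier that choroid plexus secretes, was not called (-1.08 ± 0.40, adjusted p = 0.0693). It ranged from 9.66 in BAL17 brain 4 to 12.73 in BAL17 brain 2, against 12.27 to 12.94 in the PBS brains, so brain 4 alone held much of the mean difference. Of 20 genes of brain endothelium 7 fell and none rose (median -0.26). The sialomucin Emcn fell by 0.85 (SE 0.17), the receptor Tek by 0.61 (SE 0.12) the efflux pump Abcb1a by 0.47 (SE 0.09) and the thyroxine transporter Slco1c1 by 0.47 (SE 0.10). Cldn5, the tight junction protein of the blood-brain barrier, was level at 0.01 ± 0.08 (adjusted p = 0.945), and the glucose transporter Slc2a1 was not called (-0.31, adjusted p = 0.0534). Pericyte and smooth muscle genes fell in 4 of 12, Rgs5 by 0.49 (SE 0.13), Vtn by 0.43 (SE 0.09), the smooth muscle actin Acta2 by 0.35 (SE 0.10) and Tagln by 0.33 (SE 0.11). Acta2 was not called after quantile normalization, and Tagln was not called without BAL17 brain 2, 3 or 5 or PBS brain 1, 2, 3 or 4 (-0.34 to -0.23). Of 21 meningeal and matrix genes 1 was called higher and 2 lower, near the background. Postn fell by 0.83 (SE 0.12) and Igfbp2 by 0.57 (SE 0.14), while Lum was not called (-0.44, adjusted p = 0.0532), and 4 were called lower after quantile normalization. The rise was Lox, a collagen-linking enzyme, by 0.43 ± 0.12. No member was called higher without BAL17 brain 5, and 2 were without BAL17 brain 1 or PBS brain 4.

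General neuronal genes fell in 13 of 21 members and rose in none (median -0.26), but not evenly. Tubb3, a neuronal tubulin, fell by 0.61 (SE 0.11), Eno2 by 0.51 (SE 0.09), the growth cone protein Gap43 by 0.46 (SE 0.10) and Syn1 by 0.38 (SE 0.07). Snap25, a protein of the vesicle fusion machinery, stood at 13.08, 13.01, 13.08, 12.99 and 13.05 against 13.05, 13.05, 13.01, 13.02 and 13.08. Its difference was 0.00 ± 0.07 at the top of the intensity scale. Rbfox3, a nuclear protein of most neurons, at the lower level of 10.32, differed by -0.02 ± 0.07 (adjusted p = 0.889). Of 16 glutamate receptor and transporter genes 10 fell (median -0.36), with Grm4 at -0.78 ± 0.13, Grm5 at -0.57 ± 0.09, Grik1 at -0.53 ± 0.10 and Gria1 at -0.36 ± 0.08. Of 18 genes of GABA neurons and receptors 9 fell (median -0.29), with Calb2 at -0.82 ± 0.13, the receptor subunits Gabrb1 and Gabra2 at -0.60 ± 0.08 and -0.46 ± 0.10 and the GABA-making enzyme Gad2 at -0.51 ± 0.11. Only 6 of the 18 were called without BAL17 brain 3. No member of either list rose.

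By region, the striatum list had the lowest median and the cortex list no call. In the striatum list 15 of 19 members fell and none rose, with a median of -0.95, and in the thalamus list 15 of 18 fell with a median of -0.52. None of the 15 cortex genes was called by limma (median -0.06), and 1 in each direction had an unadjusted p under 0.05. Among them were Tbr1 (0.14, adjusted p = 0.336), Fezf2 (0.20, adjusted p = 0.109), Cux1 (-0.08, adjusted p = 0.394) and Rorb (-0.26, adjusted p = 0.094). The lists hold different genes at different levels, so their medians are set side by side and the difference between regions was not tested. The dopamine receptor Drd1 stood at 7.0, 7.63, 7.06, 6.90 and 7.28 in the BAL17 brains and at 8.94, 9.32, 8.31, 7.44 and 8.25 in the PBS brains. PBS brain 4 lay inside the range of the tumour brains. Drd1 fell by 1.28 (SE 0.26, adjusted p = 0.00351), and its difference was -1.53 without that brain. Penk, the enkephalin precursor of striatal neurons, fell by 0.98 (SE 0.21), Drd2 by 1.32 (SE 0.27), the signalling regulator Rgs9 by 1.45 (SE 0.27), the G protein subunit Gng7 by 0.88 (SE 0.15) and the vesicle protein Sv2c by 1.09 (SE 0.15).

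PBS brain 4 was low in most of the striatal list. The mean of its members was 7.67 in that brain and 8.31 to 8.81 in the other PBS brains, against 7.28 to 7.87 in the BAL17 brains. PBS brain 4 thus lay within the range of the BAL17 brains. Values of 2 of the 19 members did not overlap, both lower, beside 9.69% of all genes. Without it 16 of 19 striatal members and 16 of 18 thalamic members were called lower. In the thalamus list Ntng1, a guidance protein, fell by 1.08 (SE 0.17), Adarb1, an RNA-editing enzyme, by 0.56 (SE 0.08), Zic1 by 0.53 (SE 0.10) and Tcf7l2 by 0.46 (SE 0.10), and the mean of the list was 7.46 in PBS brain 4 against 7.74 to 8.05 in the others. How much of each region the sections held was not tested.

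**Figure D5:**
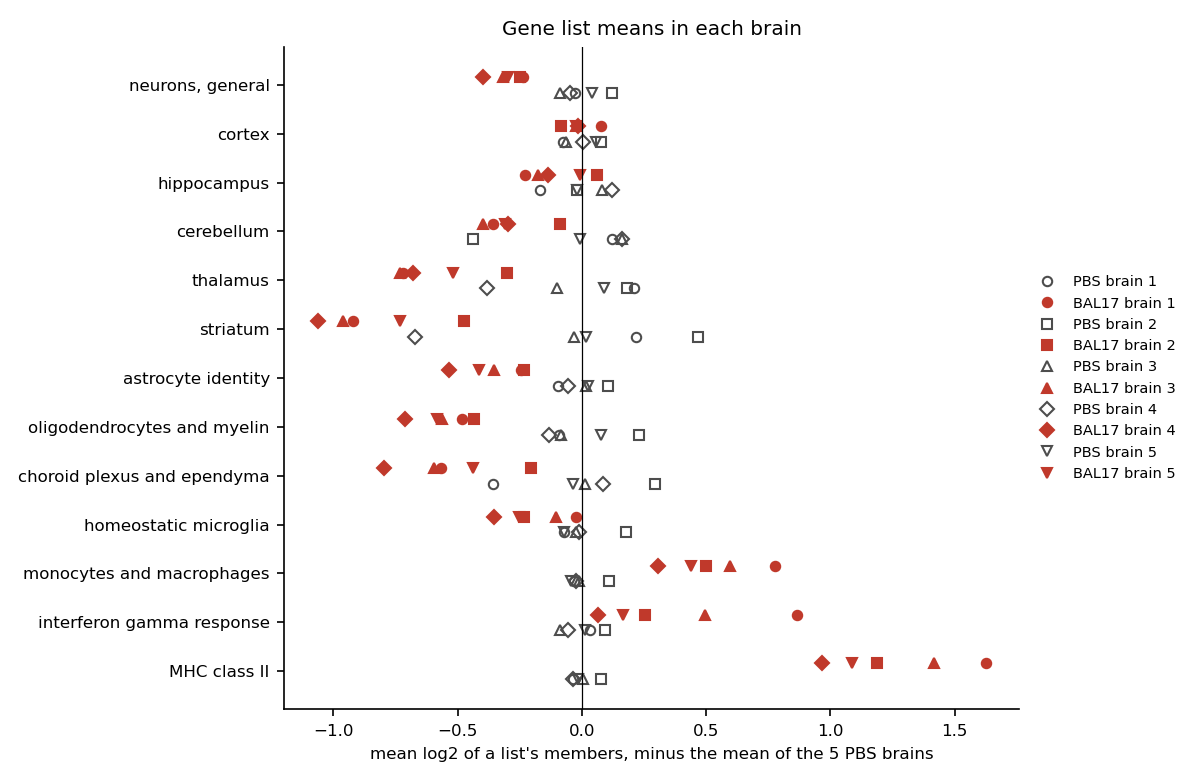
Mean log2 intensity of a list's members in each brain, minus the mean of the 5 PBS brains (horizontal axis), for 13 lists, with PBS brains as open grey symbols and BAL17 brains as filled red symbols, 1 shape for each brain number. MHC class II separates the groups by about 1 unit with BAL17 brain 1 on the far right, cortex shows no separation, and in the striatum list PBS brain 4 lies among the BAL17 brains.

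The remaining regions gave few or unstable calls. In the cerebellum list 7 of 19 fell, with 3 called without BAL17 brain 3, 4 without BAL17 brain 1 or PBS brain 1 or 3, and 14 without PBS brain 2, whose mean over the list was 8.34 against 8.77 to 8.94 in the other PBS brains. Beside Grm4, Zic1 and Eomes, given with other lists, Pvalb, a calcium-binding protein, was called lower at -0.36 ± 0.10, but not without BAL17 brain 3 (-0.33). Pcp2, a Purkinje cell gene, was not called (-0.23, adjusted p = 0.294) and was lowest of the PBS brains in brain 2, at 8.05. Of 13 hippocampal genes 2 fell, Prox1 by 0.83 (SE 0.17) and Zbtb20 by 0.41 (SE 0.10), and 1 rose, Spink8, while Dsp was not called (-0.54, adjusted p = 0.0524). The call of Spink8 (0.51, adjusted p = 0.0432) was lost without BAL17 brain 2, 4 or 5 or PBS brain 1, 3 or 5, at 0.39 to 0.54. Of 18 hypothalamic genes 2 were called lower, Cartpt (-0.60 ± 0.17) and Npy (-0.30 ± 0.10), with 1 called without BAL17 brain 2, 3 or 5 or PBS brain 1 or 4 and none without BAL17 brain 4 or PBS brain 2 or 5. Pmch (0.50, adjusted p = 0.078) and Otp (0.20, adjusted p = 0.0674) were not called. Of 13 genes of monoamine neurons 1 was called lower, Aldh1a1 (-0.47 ± 0.13), against 6 without PBS brain 4, 3 without PBS brain 3 and 0 without BAL17 brain 1 or 3 or PBS brain 2. The serotonin genes Tph2 (-0.81, adjusted p = 0.0757) and Slc6a4 (-0.70, adjusted p = 0.0542) were not called, nor were Nr4a2 (-0.24, adjusted p = 0.107) and Th, the dopamine-making enzyme (-0.16, adjusted p = 0.393).

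Prolactin had the steepest fall of all genes and the widest spread among control brains. Prl stood at 4.81, 4.79, 5.00, 5.26 and 4.83 in the BAL17 brains and at 9.20, 8.86, 10.46, 6.03 and 5.79 in the PBS brains. PBS brains 4 and 5 were less than 1 log2 unit above the highest tumour brain. The difference was -3.13 ± 0.68 (adjusted p = 0.00493) and lay between -3.70 and -2.53 when any 1 brain was left out. Growth hormone, Gh, fell by 0.58 (SE 0.16), with PBS brain 3 highest in both hormones. Both are products of the pituitary gland, which hangs below the brain, and how much of the gland each sample held was not tested. The other 10 of 12 pituitary genes were not called, Ghrhr (0.18, adjusted p = 0.115) and Tshb (-0.24, adjusted p = 0.123) among them.

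Genes of the sterol pathway fell in 11 of 15 members and rose in none (median -0.36). Hmgcs1, an early enzyme of cholesterol synthesis, fell by 0.66 (SE 0.14), Insig1 by 0.49 (SE 0.11), Fdft1 by 0.46 (SE 0.09) and the sterol carrier Stard4 by 0.41 (SE 0.09). The mean over the list was 8.40 in the PBS brains and 8.0 in the BAL17 brains. In the cultures it was 9.08, which is read only against their own array medians of 6.54 to 6.65. Of 21 genes of hypoxia and glycolysis 9 fell and 2 rose (median -0.23), with Ldhb, the lactate dehydrogenase form of oxidative tissue, at -0.49 ± 0.09, Pkm at -0.46 ± 0.09 and Hk2, a hexokinase of growing cells, at 0.42 ± 0.08. Hk1, the other hexokinase, was called higher at 0.44 ± 0.10, but stood at 0.05 with the mean of its probe sets and was then not called. Only 3 were called lower without BAL17 brain 4 and 5 without BAL17 brain 3 or 5. Vegfa, induced by low oxygen, was called lower (-0.26 ± 0.08, adjusted p = 0.0336), but not without BAL17 brain 1, 2, 3 or 4 or PBS brain 1 or 2 (-0.26 to -0.22).

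The respiratory chain list had no call among 20 genes by limma (median -0.16), and 7 were lower at an unadjusted p under 0.05, with Cox4i1 at -0.32 (adjusted p = 0.0577) Sdha at -0.19 (adjusted p = 0.078), Uqcrc1 at -0.19 (adjusted p = 0.0783) and Ppargc1a at -0.24 (adjusted p = 0.0796). With the filter at the array median, which takes dim genes out of the adjustment, 7 of these respiratory chain genes were called lower, 3 after quantile normalization and 3 without BAL17 brain 1. Stress response genes gave 4 rises and 2 falls among 25 (median -0.01). Hmox1, which breaks down heme, rose by 0.77 ± 0.12 and Atf3 by 0.53 ± 0.09, and Srxn1, an antioxidant enzyme, fell by 0.44 (SE 0.10). Of 18 activity-regulated genes 4 were called lower (median -0.17), Egr2 (-0.59 ± 0.14), Dusp1 (-0.37 ± 0.12), Jun (-0.33 ± 0.09) and Bdnf (-0.25 ± 0.08), against 2 without BAL17 brain 1 or 3 or PBS brain 2 or 3 and 8 without PBS brain 5. Fos was not called (-0.28, adjusted p = 0.0886). Of the 3 measured genes of red blood cells Bpgm fell by 0.66 (SE 0.11), and Alas2 (-0.12, adjusted p = 0.305) and Slc4a1 (0.10, adjusted p = 0.438) were not called.

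The tumour brains varied little in genes of cell division and more in several immune and glial genes. Among the BAL17 brains the genes with the largest SD were Ttr, Iigp1, Fabp7, Cxcl9 and Zfp931, and among the PBS brains they were Prl, Slc6a5, Hoxb5, Slitrk6 and Slc5a7. BAL17 brain 1 had the highest value of Ms4a1, H2-Ea, H2-Aa, Cd74, Lyz2, Cxcl9, Iigp1, Cd2 and Fabp7, and brain 3 the second highest in each of them. The interferon gamma list had means of 7.05, 6.44, 6.68, 6.25 and 6.35 in BAL17 brains 1 to 5 and of 6.10 to 6.28 in the PBS brains, so brain 4 lay within the PBS range. In contrast Mki67 stayed within 8.54 to 9.0 and Knl1, a kinetochore protein, within 8.41 to 8.49 over the same 5 brains. In the PBS group brain 2 was far above the rest in Hoxb5 (7.46, the next at 5.41) and in the glycine transporter Slc6a5 (8.91, the next at 6.96), genes of hindbrain and spinal cord.

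Brains taken 21 days after BAL17 implantation give the same genes at an earlier time, without control brains of that day. Mean levels at day 21 were 9.70 for Top2a, 10.74 for Myc, 7.26 for Ms4a1, 9.60 for H2-Ea and 9.01 for Lyz2, beside 9.62, 10.14, 7.97, 9.90 and 9.29 at day 28. Drd1 and Penk stood at 8.20 and 11.85 at day 21, beside 7.17 and 10.76 at day 28 and 8.45 and 11.74 in the PBS brains. Mag was at 7.85 at day 21, beside 7.74 at day 28 and 8.84 in the PBS brains. The levels of the 2 days are given as values and their difference was not tested.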

How the data were processed

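RNA of whole brains and of cultured lines was hybridised to Affymetrix mouse arrays and, per the submitters' processing notes, summarised with RMA in Affymetrix Expression Console. The authors deposited intensities on a linear scale (2.72 to 17825), and their log2 was taken here. Whether lines and brains were normalized together is not given in the sources used here. Of 35556 probe sets, 21789 name 1 gene, 1621 name several and 12146 are unnamed here. Where a gene had several probe sets, the brightest over these 10 brains was used. Group means of the 10 arrays were fitted with limma 3.58.1 (lmFit, eBayes, R 4.3.3) without a filter on low values, and p-values were adjusted by Benjamini-Hochberg over 19938 genes. The script was tested on simulated data.

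The comparison, gene lists and tests were chosen with earlier results of these data known. The text names the 15 largest rises and falls without overlap, the 4 members of each list with the smallest adjusted p, the 12 largest rises of genes low in cultured BAL17, the 5 genes with the largest SD in each group and a fixed set of markers. Members called against their list's direction were named after their values were seen (Grb2, Cd81, Prkcb, Bcl2l1, Xiap, Ctsd, Lpl, Ackr3, Cx3cl1, Il6st, Tnc). So were Cdk4 and the genes of the closing section, except Ptprc, a fixed marker. Nkg7, Klrd1, Cd14, Ccr2, Ms4a7, Adgre1, Itgam, C1qb, C1qc, C3ar1 and C4b were also named after their values were seen. They are left out of the counts of named genes below. Alternatives were other normalization, filters, moderation, array weights, a fit of 20 brains, a replicate block and leaving out each brain.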

Additional observations from a re-analysis of the deposited data

Results flagged for a closer look

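In each group of 5 brains, a brain was listed where its gap to the nearest of the others was more than 0.71 of the group's whole range, Dixon's limit at 95%. Chance passes about 1 in 20 groups, and 30 values did so over 538 groups examined, 2 for each of 269 named genes.

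PBS brain 2 was high in Hoxb5 (7.46), Slc6a5 (8.91), Otx2 (7.83), Gpr34 (6.74), Slco1c1 (9.36), Irgm1 (6.77) and Dbf4 (5.51) and low in Pcp2 (8.05), Cd2 (5.42), Ghrhr (7.16) and Gzmb (4.42). PBS brain 4 was low in Penk (10.96), Tcf7l2 (8.58), Bcl2 (7.54) and Plac8 (4.35) and high in Ccl2 (6.08) and Lgals3 (7.51). PBS brain 3 was high in Gh (6.79), Mcm3 (6.34) and Gpnmb (5.95) and low in Tgfb1 (5.48). PBS brain 1 was low in Ttr (12.27) and Lcat (8.76), and PBS brain 5 in Tagln (6.34).

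Fewer values came from the tumour brains. BAL17 brain 1 was high in Gzma (5.27), Hk2 (6.80) and Snord52 (8.03), brain 3 was high in Cxcr5 (4.70), brain 4 was low in Tmem119 (6.71) and brain 5 was high in Vegfa (8.29). All values are log2 intensities.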

How the results depend on the processing

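The number of called genes, 4218, was 2310 with a filter at the 75th percentile of each array, which leaves 4706 genes to test, and 452 of them were higher. A test for changes beyond 1.5 times called 220, with 220 higher and 0 lower. Quantile normalization, median centring, the filter at the array median, array weights, averaged probe sets, moderation with a robust trend and the fit of 20 brains gave 3594 to 4687. The share of calls that were higher was 34.3%, 43.5% after quantile normalization and 24.2% with the filter at the array median. Leaving out 1 brain gave 2982 (without BAL17 brain 3) to 4399 (without PBS brain 4), with 1128 to 1535 higher and 1854 to 2864 lower.

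Of 216 called genes named, 174 kept the call in every setting in which they were tested, and none changed sign. Calls were lost in 195 of 3932 pairs of gene and setting, 18 of them in the fit of 20 brains and 21 after quantile normalization. Fabp7, Iigp1, Slitrk6 and Slc5a7 were not called with trended and robust moderation (adjusted p = 0.082, 0.0751, 0.06 and 0.122). Of 53 named genes that were not called, 27 passed in at least 1 setting. List counts above 0 moved beyond 1.5 times in 190 of 1121 cases, filters that leave fewer members to test included.

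The main fit did not pair samples by replicate number, and 5 brains a group are too few to exclude such a link. Deviations of BAL17 and PBS brains of the same number correlated at 0.01, 0.18, 0.08, 0.14 and -0.06, and 1 of 5 BAL17 brains correlated best with the PBS brain of its own number. With the replicate block 4302 genes were called, 1490 higher and 2812 lower, 4 named genes lost the call and 8 gained it.

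With 5 arrays a group and a median SE of 0.09, small differences of dim genes were not resolved. Signal over background was not recorded for any probe set, so a low level has no detection call.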

Other observations

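Genes outside every list gave further rises and falls, named here after their values were seen, except Ptprc, a fixed marker. Among the 15 largest rises of such genes without overlap between the groups were the leukocyte genes Ptprc, which encodes CD45, at 2.52 ± 0.15 (log2 difference ± SE, 5 and 5 brains), the guanine exchange factor Dock2 at 2.22 ± 0.09 and the receptor Slamf7 at 2.61 ± 0.11. Genes of the endosome also stood among them. Ctse, an aspartic protease, stood at 8.59 ± 0.17 (SD) in the BAL17 brains and 5.73 ± 0.09 in the PBS brains, and rose by 2.86 ± 0.09. Ifi30, a thiol reductase that prepares antigens for MHC class II, rose by 2.78 ± 0.10. Dbf4, the regulatory subunit of the kinase that fires replication origins, rose by 2.75 ± 0.11, and the amino acid transporter Slc1a5 by 2.31 ± 0.11. Among the 15 largest falls of such genes without overlap were Cryab, a small heat shock protein of oligodendrocytes and astrocytes, by -0.86 ± 0.13, Enpp6, of newly formed oligodendrocytes, by -0.84 ± 0.17 and the growth factor receptor Fgfr2 by -0.85 ± 0.10.

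Small nucleolar and Cajal body RNAs, which guide the modification of ribosomal and spliceosomal RNA, were looked at after the values were seen. Of 54 such genes 22 were called higher and 1 lower, against 7.26% and 13.9% of all genes, and their median difference was 0.32. Those called higher had a median of 0.66. Snord87 rose by 1.05 ± 0.16, Snord52 by 0.94 ± 0.10, Snord82 by 0.87 ± 0.17 and Snora75 by 0.84 ± 0.16. Many of these RNAs are cut from introns of other genes, and signal from the host transcripts was not tested.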
